A study of Mus musculus with 34 samples.

Results

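A set of 9 interferon-induced antiviral genes, out of 24475 genes in the deposited table, was followed across 34 mouse RNA-seq libraries of monocytes and macrophages. They were taken from the table by Entrez Gene ID. They are Isg15 and Usp18, the Ifit family members Ifit1, Ifit1bl1, Ifit2, Ifit3 and Ifit3b, Rsad2 (viperin), and Ifi44. All 9 were found, and all 9 passed the filter on low counts both in the libraries from mice and in the cultured libraries.

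Type I interferon binds a receptor built from Ifnar1 and Ifnar2, and the kinases Jak1 and Tyk2 then activate STAT factors such as Stat2, which join Irf9 and bind a DNA element in the promoters of induced genes. IRF factors activated by nucleic acid sensors can switch on several of the same genes directly. Isg15 encodes a ubiquitin-like protein that is attached to other proteins by Uba7, Ube2l6 and a ligase, and Usp18 removes it and also restrains the receptor. Ifit proteins are built of tetratricopeptide repeats and bind viral RNA or each other, and viperin is an enzyme that makes a chain-terminating nucleotide. Monocytes and macrophages respond readily to interferon, and these genes are commonly read as a sign that they have done so.

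C57/Bl6 mice carried tumors grown from LLC cells (Lewis lung carcinoma) or MC38 cells (colon adenocarcinoma), and cells were sorted by flow cytometry into 6 groups of 4 libraries. TuMon1 libraries held Ly6C+ CD88+ Sca1+ monocytes of MC38 tumors, and TuMon2 libraries held Ly6C+ CD88+ Sca1- monocytes of LLC tumors. Macrophages of both tumors, and Ly6C+ monocytes sorted from the spleens of both kinds of tumor-bearing mice, made up the other 4 groups. Bone marrow monocytes of the same strain were cultured untreated (control, 4 libraries), with LLC supernatant (3 libraries, labelled with the TuMon2 phenotype) or with MC38 supernatant (3 libraries, labelled with the TuMon1 phenotype). The mice's age, the time in culture and whether replicates came from separate mice were not stated, so p-values measure the spread between these samples, which may be technical. The tumor line and the Sca1 gate always coincide, so their parts in a difference between TuMon1 and TuMon2 cannot be told apart. Sca1 is encoded by Ly6a, itself known as an interferon-induced gene, and Ly6a had 1734 ± 50.4 CPM (counts scaled to library depth, mean ± SD, n = 4) in TuMon1 and 36.5 ± 4.71 in TuMon2. All samples are bulk, so fewer responding cells and less RNA per cell cannot be told apart.

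Library totals ran from 13047772 to 26966644 estimated counts. The monocyte and macrophage markers matched the labels in part. Monocyte markers (Ly6c2, Ccr2, Csf1r, C5ar1, Ly6a, Cd14, Itgam) summed to 9928 to 10721 CPM in TuMon1 and 11332 to 12210 CPM in TuMon2. In spleen monocytes they summed to 3683 to 5234 CPM (MC38) and 5282 to 5977 CPM (LLC). Both lay below LLC macrophages at 7231 to 8044 CPM, and MC38 spleens overlapped MC38 macrophages at 3837 to 4673 CPM. Macrophage markers (Adgre1, C1qa, C1qb, C1qc, Mrc1, Apoe, Mertk) summed to 7946 to 9133 CPM in LLC macrophages and 12213 to 12999.9 CPM in MC38 macrophages, but also to 7153 to 7937 CPM in TuMon1, against 3217 to 3449 CPM in TuMon2. In culture the same sum rose from 361 to 451 CPM in controls to 7044 to 7236 CPM with LLC supernatant and 5615 to 6424 CPM with MC38 supernatant, and Ly6c2, which encodes Ly6C, was at 13.9 ± 1.47 CPM with LLC supernatant (n = 3) although those cells are labelled Ly6C+. Some libraries carried transcripts of other tissues. Fat markers summed to 4410 to 7611 CPM in replicates 1 to 3 of the MC38 spleens against 2.58 CPM in replicate 4. Fibroblast markers reached 2854 CPM in MC38 supernatant replicate 3 and, at a far lower level, 27.8 CPM in control culture replicate 2 (other controls 0.724 to 1.98). Without these 5 libraries, the call of Rsad2 in the tumor-spleen difference was the only call of the 9 genes that changed. No fixed level chose them, and MC38 macrophage replicate 4, with 68.1 CPM of fat markers, is not among them.

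The Ifit genes form a cluster on chromosome 19 (GRCm38), and all 9 genes are annotated as protein-coding. Ifit2 lies at chr19:34550550-34576534, Ifit3 at chr19:34583119-34588982, Ifit3b at chr19:34607530-34613403 and Ifit1 at chr19:34640889-34650009, all on the plus strand. Ifit1bl1, on the minus strand, has a RefSeq span of chr19:34592888-34662981 that encloses Ifit3b and Ifit1. Isg15 lies at chr4:156199424-156200818 (minus), Usp18 at chr6:121245906-121270917 (plus), Rsad2 at chr12:26442743-26456452 (minus) and Ifi44 at chr3:151730922-151749910 (minus). Isg15 and Usp18 each overlap an annotated long noncoding RNA, Gm46878 and Gm44148. The kit marks strand, but whether the counting used it was not stated, so reads of overlapping genes may not have been kept apart.

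The interferon-stimulated response element is the DNA element named above, and its core, GAAA followed by any 2 bases and GAAA again (TTTC and TTTC on the other strand), was searched on both strands in RefSeq windows (GRCm38.p6) from 250 bases before to 50 bases after a transcript start. Of the 8 genes with a window, 6 held it, against 3.99% of all 27025 genes with a window (3.44% of 32851 windows). The stretches that hold it are shown because they place the core before an annotated transcript start of genes whose values follow. Those of Isg15, Ifit1 and Rsad2 lie in front of the gene spans given above. Those of Ifit3, Ifit3b and Ifit1bl1 lie inside the spans, before transcript starts within the gene. They are written 5′ to 3′ on the gene's strand with 20 bases on either side, and capitals mark the match. Their positions are chr4:156200855-156200916 for Isg15, chr19:34640765-34640833 for Ifit1, chr19:34602043-34602092 for Ifit1bl1, chr19:34583353-34583436 for Ifit3, chr19:34607749-34607832 for Ifit3b and chr12:26456543-26456592 for Rsad2.
Isg15: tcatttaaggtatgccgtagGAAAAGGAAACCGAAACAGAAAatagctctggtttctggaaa
Ifit1: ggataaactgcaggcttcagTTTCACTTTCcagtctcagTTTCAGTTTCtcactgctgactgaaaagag
Ifit1bl1: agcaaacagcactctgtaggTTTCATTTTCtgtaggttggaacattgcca
Ifit3: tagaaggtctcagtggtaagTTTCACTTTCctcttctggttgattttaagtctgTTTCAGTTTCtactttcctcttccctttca
Ifit3b: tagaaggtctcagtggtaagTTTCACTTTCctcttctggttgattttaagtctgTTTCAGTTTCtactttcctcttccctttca
Rsad2: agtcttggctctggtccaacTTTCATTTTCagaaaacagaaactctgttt
Isg15 held 3 overlapping matches on its own strand, the nearest beginning 66 bases before the start. Ifit1 held 2 on the other strand, beginning 104 and 85 bases before the start. Ifit1bl1 held 1 at 104 bases in the window printed and 1 at 23 bases in another window, and Rsad2 held 1 at 120 bases. Ifit3 and Ifit3b held 2 each within stretches that read the same, at 156 and 122 bases in Ifit3 and at 188 and 154 bases in Ifit3b. The windows of Ifit2 and Ifi44 did not contain these letters, which says nothing about the factors that bind there, and Usp18 was not searched. None of the 6 printed stretches overlapped an exon of the GENCODE annotation (0 for each), and a match is a description of the sequence, not a binding site.

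Ifit3 and Ifit3b are nearly the same gene, and their values are shared estimates. Their coding sequences were 99.09% identical (11 mismatches and 0 gaps), and 51.24% of the 50-base stretches of the Ifit3 transcript also occur in Ifit3b. Deposited values of Ifit1, Ifit1bl1, Ifit3 and Ifit3b were not whole in 34 of 34 libraries, as happens when reads are divided among genes, whereas those of Ifit2, Isg15 and Usp18 were whole in every library. Ifit1 and Ifit1bl1 share 7.06% and 6.51% of their 50-base stretches with Ifit1bl2, so the split among these genes is uncertain. The coding identity of Ifit1 and Ifit1bl1 was 74.05%, and other pairs of the family lay between 51.87% and 56.45%.

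All 9 genes had their highest mean level in TuMon1. The lowest mean was in control cultures for 7 genes and in LLC supernatant cultures for 2, Ifit1bl1 and Ifit3b. From the highest to the lowest group mean the ratio ran from 17.3 for Usp18 to 590 for Ifit1bl1, with 228 for Ifi44 and 136 for Isg15. The in vivo and cultured libraries are different material and were scaled apart. Ratios and orders across them, here and below, are therefore only approximate and were not tested. The 9 genes together took 8067 ± 293 CPM in TuMon1, 3215 ± 298 in MC38 macrophages, 2956 ± 194 in TuMon2 and 526 ± 46.8 in LLC macrophages (SD, n = 4 each). Spleen monocytes held 418 ± 222 CPM with LLC tumors and 375 ± 65.6 with MC38 tumors. Cultures held 2164 ± 220 CPM with MC38 supernatant (n = 3), 249 ± 6.78 with LLC supernatant (n = 3) and 120 ± 14.9 as controls (n = 4).

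**Figure D1:**
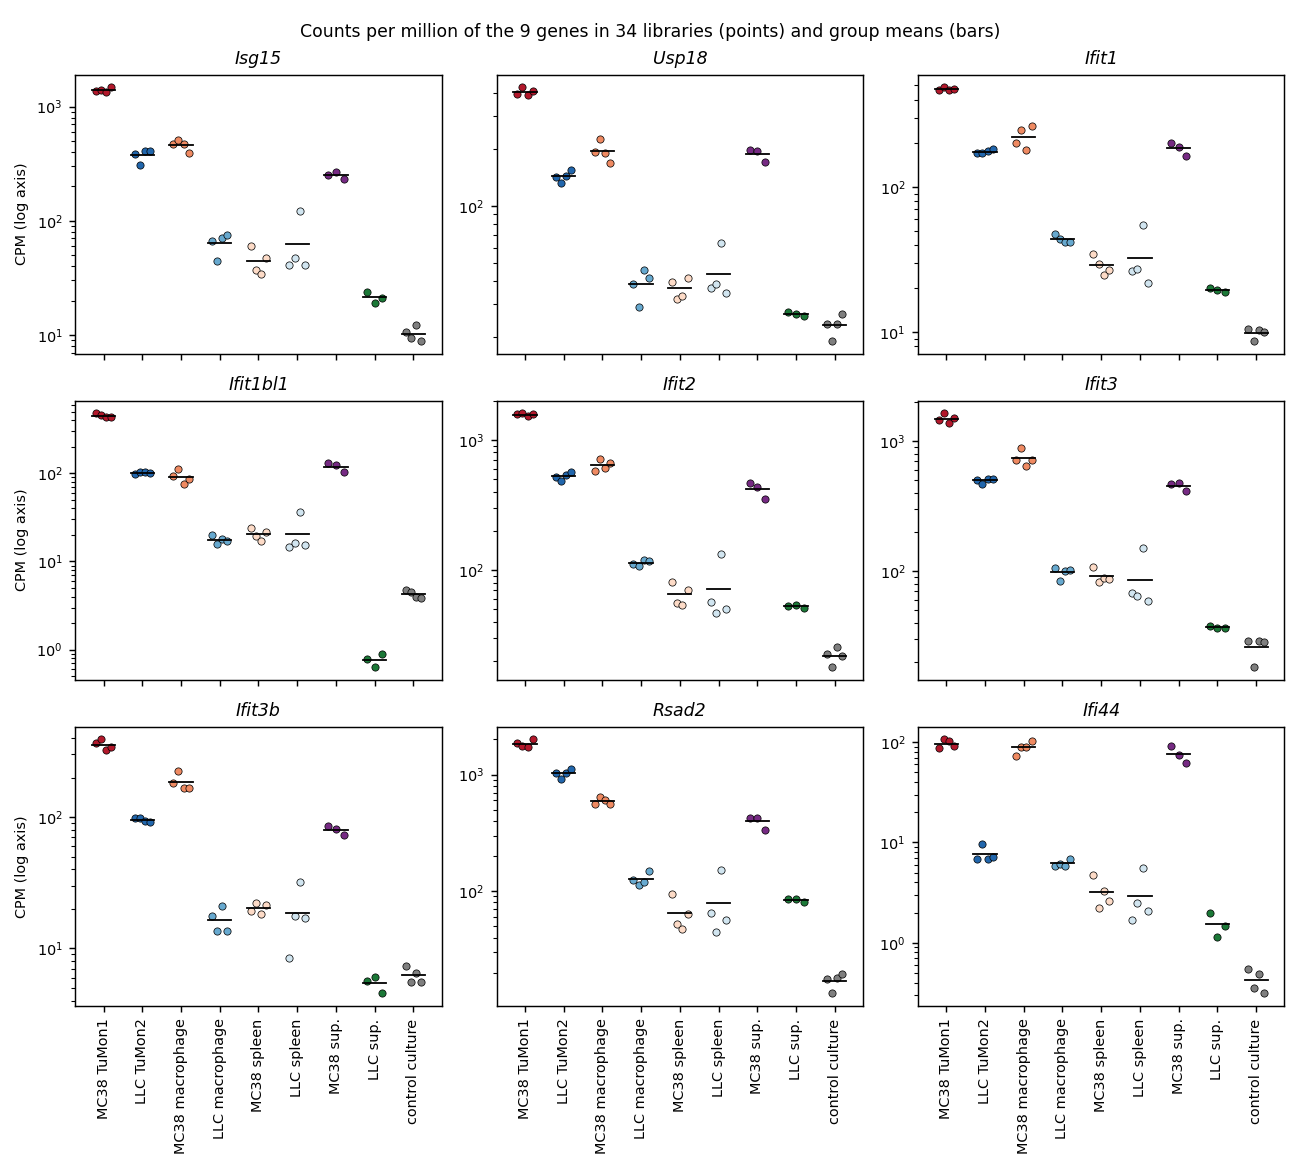
Each panel plots the CPM of a gene (log axis, with its own range per panel) in every library as a point, by group, with a bar at the group mean. TuMon1 is highest in all 9 panels, and in the LLC spleen group 1 library, replicate 3, lies above the other 3 in each panel.

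The order of the groups below TuMon1 differed between genes: the next highest mean was in MC38 macrophages for 7 genes, in TuMon2 for Rsad2 and in MC38 supernatant cultures for Ifit1bl1. For Isg15, the ubiquitin-like modifier, the 4 TuMon1 libraries held 1378, 1392, 1336 and 1477 CPM, and the 4 MC38 macrophage libraries 470, 514, 468 and 392 CPM. TuMon2 libraries held 382, 311, 404 and 411 CPM, which overlapped the MC38 macrophages. MC38 supernatant cultures at 251.4, 265 and 232 CPM lay apart below these, and then came LLC macrophages at 66.7, 44.5, 71.2 and 75.0 CPM. The LLC macrophages overlapped the LLC spleen libraries (41.4, 47.3, 122 and 40.6 CPM), which overlapped the MC38 spleen libraries (59.7, 37.1, 34.1 and 47.3 CPM). LLC supernatant cultures (23.97, 19.0 and 21.2 CPM) and controls (10.5, 9.40, 12.2 and 8.86 CPM) did not overlap each other or any other group.

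Per kilobase of the longest coding transcript, Isg15 had the highest level of the 9 genes in 8 of the 9 groups, at 1846 CPM per kilobase in TuMon1 and 499 in TuMon2. Ifit3 followed in TuMon1 at 854 CPM per kilobase, then Rsad2 at 484 and Ifit2 at 410. Ifi44 was lowest in 8 of the 9 groups, with 33.3 CPM per kilobase in TuMon1 and 2.62 in TuMon2. The exceptions were control cultures, where Ifit3 at 15.0 CPM per kilobase stood above Isg15 at 13.5, and LLC supernatant cultures, where Ifit1bl1 at 0.350 stood below Ifi44 at 0.526.

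Between tumor monocytes, all 9 genes were higher in TuMon1 than in TuMon2, and for all 9 every TuMon1 library lay above every TuMon2 library. A gene was called when its adjusted p (edgeR's quasi-likelihood test, Benjamini-Hochberg over all genes) was under 0.05, and 26.8% of the 13200 genes tested were called higher in this comparison, while 27.9% had no overlap in that direction. The 9 log2 differences had a median of 1.58, beside 0.06 for all genes tested. Ifi44 differed most: its TuMon1 libraries held 86.8, 107, 103 and 91.1 CPM and its TuMon2 libraries 6.87, 9.72, 6.81 and 7.10 CPM, a 12.6-fold difference (log2 difference 3.65 ± 0.24 SE, adjusted p = 1.16e-10). Isg15 was 3.70-fold higher (1.89 ± 0.28, adjusted p = 1.49e-05), and Usp18, which removes Isg15 from proteins, was 2.82-fold higher (1.49 ± 0.15, adjusted p = 3.85e-08).

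The Ifit genes lay close together in that comparison. Ifit2 held 1578, 1599, 1515 and 1569 CPM in TuMon1 and 516, 486, 536 and 568 CPM in TuMon2. It was 2.97-fold higher (1.57 ± 0.23, adjusted p = 9.49e-06), Ifit3 2.98-fold and Ifit1 2.71-fold. Ifit3b (3.72-fold) and Ifit1bl1 (4.43-fold) differed more. Rsad2, the gene of viperin, differed least: 1868, 1744, 1712 and 2003 CPM in TuMon1 stood above 1034, 914, 1041 and 1127 CPM in TuMon2, a 1.78-fold difference (0.83 ± 0.27, adjusted p = 0.0154). This was the call that depended on single libraries, with adjusted p = 0.0609 without TuMon2 replicate 2 and 0.0534 without TuMon1 replicate 4. Over all 33 alternative settings, by edgeR or DESeq2, its adjusted p ran from 3.36e-08 to 0.0609. The fit estimates the spread over all 6 in vivo groups. The SD of Rsad2 was 61.6% of its mean in LLC spleens, 7.23% in TuMon1 and 8.51% in TuMon2, and the part of this in the p-value was not tested.

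Markers of other cells differed between these groups too. Plasmacytoid dendritic markers, which mark the classic interferon-producing cell, summed to 2.91 to 5.09 CPM in TuMon1 and 0.458 to 0.757 CPM in TuMon2. Of the 5, Klk1 was at 0 in all 8 libraries and the defining marker Siglech at 0 in 4 of 4 TuMon2 and 1 of 4 TuMon1 libraries, with at most 0.202 CPM. Epithelial and tumor markers summed to 41.3 to 65.6 CPM in TuMon2 and 5.60 to 7.83 CPM in TuMon1. T and NK markers summed to 8.94 to 10.7 CPM in TuMon1 and 1.14 to 2.12 CPM in TuMon2, dendritic markers to 11.1 to 14.5 and 3.18 to 5.22 CPM, and neutrophil markers to 24.8 to 32.2 and 79.4 to 114 CPM. Their part in the result was not tested.

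**Figure D2:**
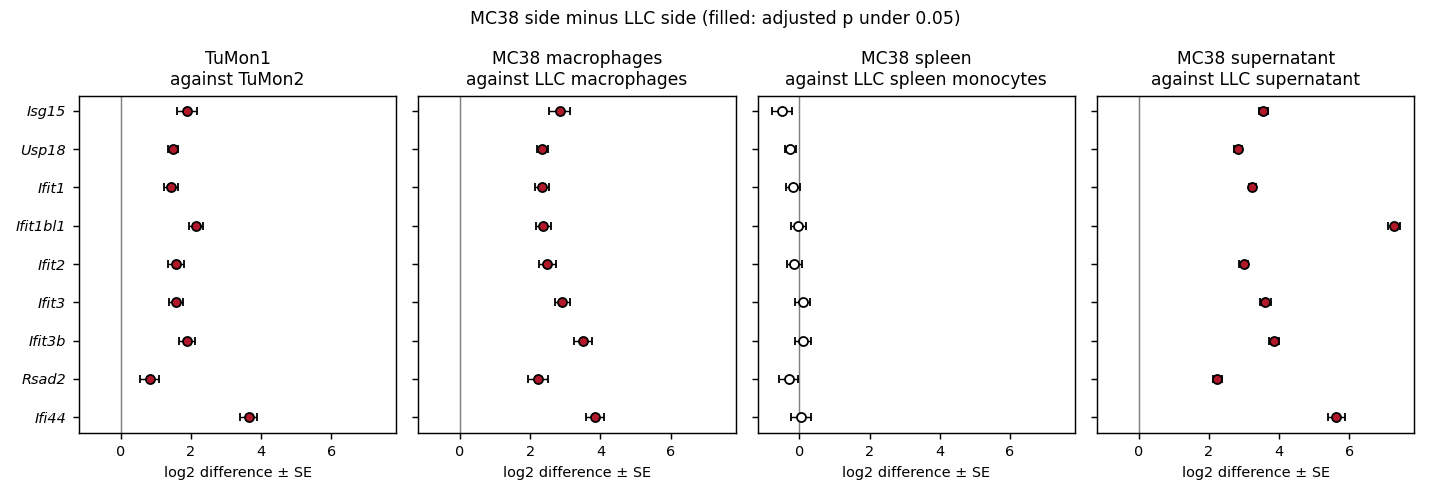
Points are log2 differences of the MC38 side minus the LLC side for each gene, bars are ± 1 SE from edgeR, and filled points have an adjusted p under 0.05. The 9 genes are above 0 in tumor monocytes, macrophages and cultures, and none is called between the spleens.

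In macrophages the same direction held. All 9 genes were higher in MC38 than in LLC macrophages, with no overlap between libraries, while 22.4% of genes tested were called higher and 22.4% lay apart in that direction. The median log2 difference was 2.49, against −0.0026 for all genes tested, and values ran from 2.23 (Rsad2) to 3.85 (Ifi44). Ifi44 held 72.2, 90.1, 89.6 and 102 CPM in MC38 macrophages and 5.84, 6.16, 5.83 and 6.85 CPM in LLC macrophages, a 14.4-fold difference (adjusted p = 3.33e-11). Ifit3b was 11.3-fold higher (3.49 ± 0.25, adjusted p = 4.95e-10), with 182, 225, 166 and 165 CPM against 17.6, 13.6, 20.9 and 13.6 CPM. Ifit3 was 7.53-fold and Isg15 7.17-fold higher, and Ifit1, Usp18, Ifit1bl1 and Ifit2 were between 5.06-fold and 5.61-fold higher. Epithelial and tumor markers summed to 91.6 to 144 CPM in LLC macrophages and 5.50 to 8.08 CPM in MC38 macrophages, and their part was not tested.

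Spleen monocytes of the mice with each tumor gave no call. Of the 9 genes 0 were called by edgeR's quasi-likelihood test, 0 had an unadjusted p under 0.05 and 0 were called by DESeq2, while 28.4% of all genes tested were called in either direction. That share depends on the libraries: the 3755 calls over all genes became 944 in a fit of only these groups and 6640 without MC38 spleen replicate 4. Without the 3 MC38 spleens that carry fat transcripts, replicate 4 is the only MC38 spleen library left. A count of calls from that fit is not given. The median log2 difference of MC38 minus LLC was −0.14, from −0.50 ± 0.28 SE for Isg15 to 0.11 ± 0.24 for Ifit3b, beside −0.07 for all genes tested. Library ranges overlapped for all 9 genes, and of all genes 4.21% lay wholly above and 10% wholly below in MC38 spleens. These values do not show that the spleens are alike, and the LLC spleen libraries were the most spread out of the 9 groups.

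LLC spleen replicate 3 was the highest of its 4 libraries for 9 of 9 genes. Ifit2 held 56.5, 46.7, 133 and 49.97 CPM in replicates 1 to 4, Rsad2 65.2, 44.9, 153 and 56.6 CPM, and Usp18 36.8, 38.5, 63.4 and 34.4 CPM. The median coefficient of variation of the 9 genes was 51.8% in that group, and the medians of the other 8 groups lay between 3.51% and 14.4%. In the marker sums replicate 3 had 5977 CPM of monocyte markers (others 5282 to 5916), 1301 CPM of macrophage markers (others 1201 to 1412), 4748 CPM of neutrophil markers (others 2950 to 4416) and 1.36 CPM of plasmacytoid dendritic markers (others 0.802 to 1.60). The summed level of 25 other interferon-induced effectors was 8318 CPM in it and 7091 to 7525 CPM in the others. Without that library 3 genes were called higher in MC38 spleens: Ifit3 (log2 difference 0.51, adjusted p = 0.00107), Ifit1bl1 (0.40, adjusted p = 0.0140) and Ifit2 (0.34, adjusted p = 0.0237). With all libraries, 28.4% of all genes tested were called in either direction. The share without replicate 3 is not given here, so whether 3 of 9 genes is more than that share cannot be said.

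**Figure D3:**
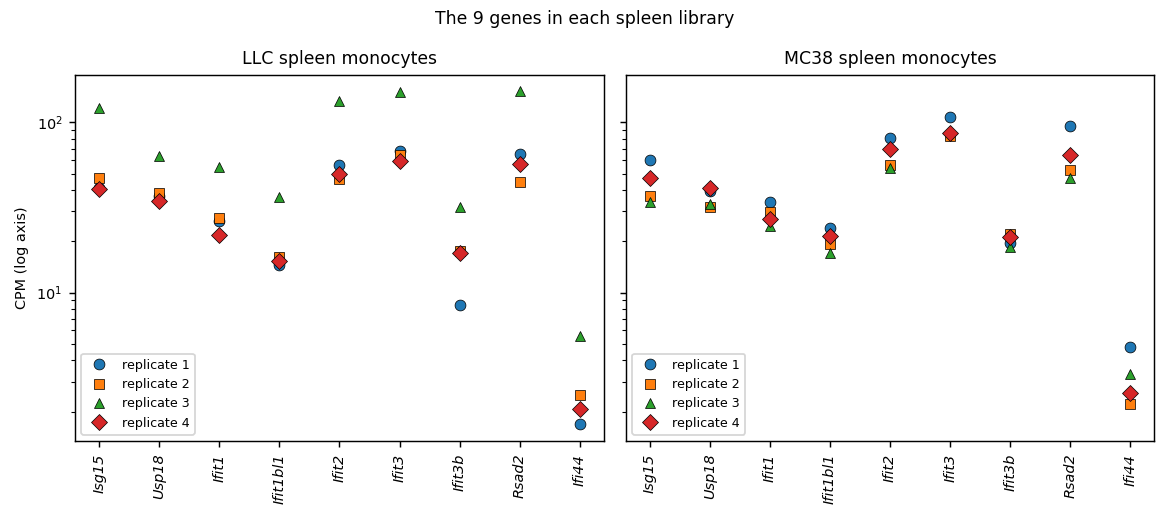
CPM (log axis) of the 9 genes in each spleen library, with a symbol per replicate number. Replicate 3 of the LLC spleens stands above the other 3 libraries for all 9 genes, with Isg15 at 122 CPM against 40.6 to 47.3 CPM.

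Tumor monocytes were set against spleen monocytes of mice with the same tumor. All 9 genes were higher in TuMon1 than in MC38 spleen monocytes (33.5% of genes tested were called higher) with a median log2 difference of 4.48. Isg15 was 31.4-fold higher (4.97 ± 0.32 SE, adjusted p = 3.20e-11), Ifi44 30.3-fold and Rsad2 28.3-fold, and Usp18 was the least changed at 11.1-fold (3.47 ± 0.17, adjusted p = 1.45e-14). All 9 were also higher in TuMon2 than in LLC spleen monocytes (28.6% called higher), with a median of 2.42. Rsad2 led here at 12.9-fold (3.69 ± 0.30, adjusted p = 1.42e-09), and Ifi44 was last at 2.51-fold (1.33 ± 0.27, adjusted p = 0.000191). Tumor libraries lay above all spleen libraries for all 9 genes in both tumors, as they did for 30.8% of genes tested with MC38 and 28.1% with LLC. Medians over all genes tested were −0.04 and −0.05. Markers of other cells also changed between these sources: neutrophil markers summed to 777 to 3401 CPM in MC38 and 2950 to 4748 CPM in LLC spleen libraries, 24.8 to 32.2 CPM in TuMon1 and 79.4 to 114 CPM in TuMon2. Macrophage markers were higher in the tumor in 7 of 7 (MC38) and 6 of 7 (LLC) genes, and the part of either in the results was not tested.

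The step from spleen to tumor was larger with MC38 than with LLC for all 9 genes by a test of the difference itself (23.8% of genes tested were called higher). The median difference of log2 differences was 1.75. Ifi44 had the largest value (3.60 ± 0.37 SE, adjusted p = 1.68e-07) and Isg15 the next (2.39 ± 0.39, adjusted p = 7.62e-05). Rsad2 had the smallest (1.14 ± 0.38, adjusted p = 0.0218), and its call was lost without MC38 spleen replicate 2 (adjusted p = 0.0514) or replicate 3 (0.0510), in a fit of only the 4 groups compared (0.0840) and without the libraries that carry foreign transcripts (0.122). The last of these leaves 1 MC38 spleen library, whose spread is assumed to be that of the other groups, and the other 8 genes were called there as well.

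Macrophages were then set against monocytes of the same tumor, comparisons that use the same monocyte libraries as those above. In MC38 tumors 8 of 9 genes were lower in macrophages than in TuMon1 (27.9% of genes tested were called lower, and 27.4% lay wholly below), with a median log2 difference of −1.10. Ifit1bl1 was 4.94-fold lower (−2.30 ± 0.21 SE, adjusted p = 1.15e-08): its macrophage libraries held 93.0, 112, 75.1 and 87.1 CPM and its TuMon1 libraries 482, 462, 436 and 436 CPM. Rsad2 was 3.09-fold and Isg15 3.03-fold lower, and Ifit3b was 1.93-fold lower. Ifi44 was not called, at −0.13 ± 0.21 (adjusted p = 0.648), and its libraries overlapped.

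In LLC tumors the same 8 genes were lower in macrophages than in TuMon2 (26.3% called lower, 24.6% wholly below), with a median of −2.34. Rsad2 was 8.14-fold lower (−3.03 ± 0.29 SE, adjusted p = 4.07e-08), from 1034, 914, 1041 and 1127 CPM in TuMon2 to 124, 113, 120 and 149 CPM in macrophages. Isg15 was 5.86-fold and Ifit1bl1 5.80-fold lower, and Usp18 was 3.71-fold lower. Ifi44 was again not called (−0.32 ± 0.25, adjusted p = 0.291), and its 2 groups overlapped. Neither value shows that the levels are equal.

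The fall from monocyte to macrophage differed between the tumors for 5 of 9 genes (6.25% of genes tested were called in that direction), each falling less with MC38. The difference of log2 differences was 1.60 ± 0.33 SE for Ifit3b (adjusted p = 0.00207), 1.33 ± 0.29 for Ifit3 (0.00288), 1.40 ± 0.38 for Rsad2 (0.0176), 0.85 ± 0.21 for Usp18 (0.00905) and 0.90 ± 0.26 for Ifit1 (0.0251). Isg15 had 0.95 ± 0.39 (adjusted p = 0.112), Ifit2 0.91 ± 0.32 (0.0587), Ifit1bl1 0.23 ± 0.29 (0.666) and Ifi44 0.19 ± 0.32 (0.768). Calls near the threshold moved with the fit. Ifit2 was called with DESeq2 (adjusted p = 0.0491), and in edgeR with RLE scaling (0.0479) and with a filter of 5 CPM in 3 libraries (0.0427). It was also called without LLC spleen replicate 2 (0.0396), 3 (9.77e-05) or 4 (0.0468), and in a fit of only these 4 groups (5.79e-07). Isg15 was called without LLC spleen replicate 3 (0.00411) and in the fit of only these 4 groups (0.000747), and Ifit1 lost its call without MC38 macrophage replicate 2 (0.0519) or 4 (0.0582).

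**Figure D4:**
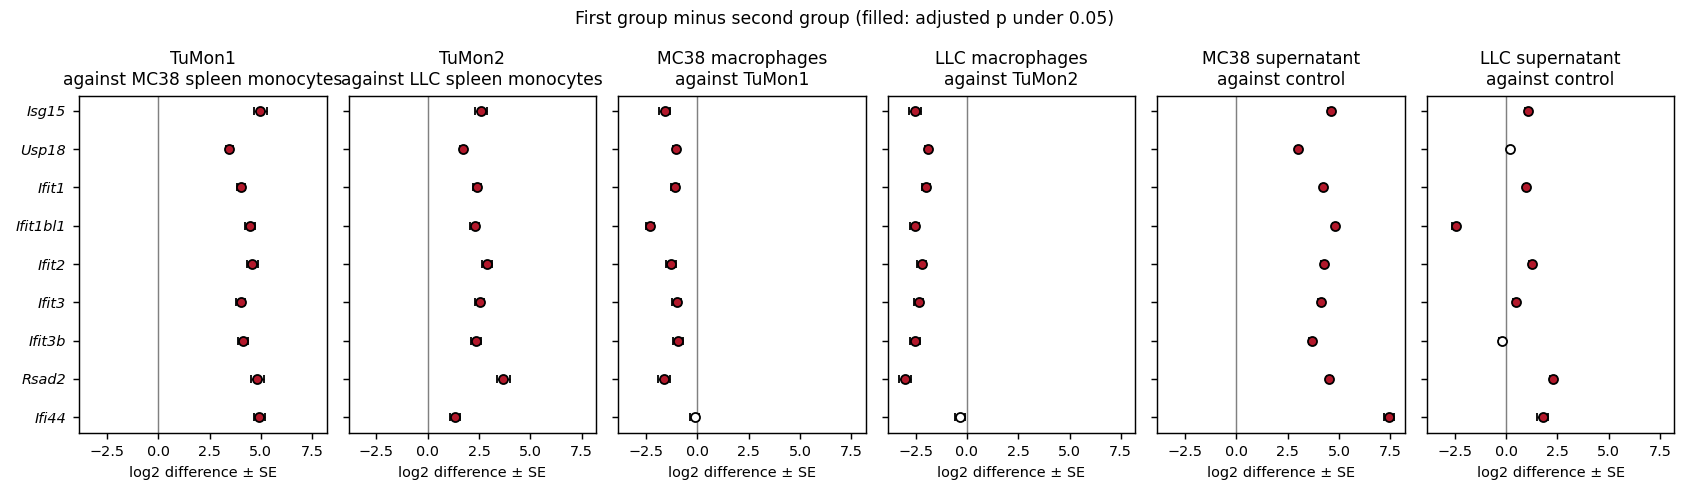
Log2 differences of the 9 genes with bars of ± 1 SE from edgeR for tumor against spleen monocytes, macrophages against tumor monocytes, and each supernatant against control, with filled points for an adjusted p under 0.05. Ifi44 is open in both macrophage panels, and the panel of LLC supernatant is the only one with called genes on both sides of 0.

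In culture MC38 supernatant raised all 9 genes over control, with no overlap between libraries (35.4% of 12603 genes tested were called higher and 34.4% lay apart in that direction). The median log2 difference was 4.24, beside 0.05 for all genes. Ifi44 went from 0.549, 0.353, 0.483 and 0.315 CPM in controls to 91.2, 74.4 and 61.4 CPM, a 170-fold difference (7.41 ± 0.24 SE, adjusted p = 1.84e-09). The control values rest on 5 to 15 counts in each library, so the ratio is less precise than that of the other genes. Ifit1bl1 was 28.1-fold, Isg15 24.3-fold and Rsad2 23.1-fold higher, and Usp18 was the least raised at 8.08-fold (3.01 ± 0.10, adjusted p = 1.94e-09). MC38 supernatant replicate 3, the library with 2854 CPM of fibroblast markers, was the lowest of its 3 libraries for 9 of 9 genes. All 9 genes were called without it and control replicate 2 as well. Macrophage markers rose in the same comparison (7 of 7, median log2 difference 6.84), and with LLC supernatant too (7 of 7, median 7.10).

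LLC supernatant moved the genes unequally against the same 4 controls. It raised 6 of 9 (32.3% of genes tested were called higher, 34.4% lay wholly above) and lowered 1 (36.1% called lower, 37.8% wholly below). Rsad2 was 4.89-fold higher, at 84.8, 85.1 and 81.1 CPM against 17.6, 13.4, 17.9 and 19.4 CPM (2.29 ± 0.12 SE, adjusted p = 5.86e-08). Ifi44 was 3.45-fold, Ifit2 2.38-fold, Isg15 2.08-fold, Ifit1 1.97-fold and Ifit3 1.41-fold higher. Ifit1bl1 fell, from 4.79, 4.45, 3.94 and 3.83 CPM to 0.779, 0.634 and 0.897 CPM, a 5.51-fold difference (−2.46 ± 0.15, adjusted p = 1.81e-07) that rests on 16.4 to 21.4 estimated counts in each LLC supernatant library. Usp18 (0.19 ± 0.10, adjusted p = 0.112) and Ifit3b (−0.20 ± 0.13, adjusted p = 0.186) were not called and their libraries overlapped. Usp18 was called at 0.27 without control replicate 4 (adjusted p = 0.0323) and at 0.33 in a fit of only these 2 groups (0.00903). With Ifit3 and Ifit3b summed as 1 gene the sum was higher by 0.39 (adjusted p = 0.0184).

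Set against each other, the supernatants differed for all 9 genes (21.6% of genes tested were called higher with MC38 supernatant, and 32.5% lay wholly above), with no overlap and a median log2 difference of 3.55. Ifit1bl1 was 155-fold higher with MC38 supernatant (7.28 ± 0.17 SE, adjusted p = 2.48e-09), at 131, 125 and 103 CPM. Ifi44 was 49.4-fold higher (5.63 ± 0.24, adjusted p = 1.48e-07). Isg15, Ifit1, Ifit3 and Ifit3b were between 9.44-fold and 14.6-fold higher, Ifit2 was 7.96-fold and Usp18 7.06-fold higher, and Rsad2 was again the least different at 4.73-fold (2.24 ± 0.13, adjusted p = 9.78e-07). Other markers differed as well. Of the neutrophil markers, 6 of 7 were higher with MC38 supernatant (median log2 difference 3.62). Their sums overlapped, at 1477 to 1783 CPM against 1700 to 1758 CPM with LLC supernatant. Monocyte markers summed to 6766 to 8084 CPM against 4232 to 4327 CPM. The part of these markers was not tested. In all 3 comparisons of the MC38 side with the LLC side that gave calls, Rsad2 had the smallest difference of the 9.

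Ratios within a library do not depend on its depth, and they show where the genes part from each other. These are descriptions with no test. Rsad2 had 1.95 ± 0.06 estimated counts per count of Ifit2 in TuMon2 (SD, n = 4) and 1.59 ± 0.02 with LLC supernatant (n = 3), and in the other 7 groups its mean ratio was between 0.777 and 1.17. Ifi44 had its lowest mean ratio in TuMon2 at 0.0146 (0.0125 to 0.0200), which overlapped control cultures at 0.0192 (0.0144 to 0.0243). LLC supernatant followed at 0.0291, then the LLC spleens at 0.0415 and the MC38 spleens at 0.0493. The ratio of Ifi44 was 0.0541 in LLC macrophages, 0.0619 in TuMon1 and 0.138 in MC38 macrophages, and highest with MC38 supernatant at 0.180. Ifit1bl1 stood between 0.143 and 0.317 in 8 groups and at 0.0148 ± 0.0028 with LLC supernatant. The lowest and highest ratios of Rsad2 in TuMon2 (1.88 and 2.01) lay outside the range of TuMon1 (1.09 to 1.28). Ifit3b made up 12.8% of the sum of Ifit3 and Ifit3b with LLC supernatant and 14.2% in LLC macrophages, and 19.9% in MC38 macrophages, on estimates that share reads.

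**Figure D5:**
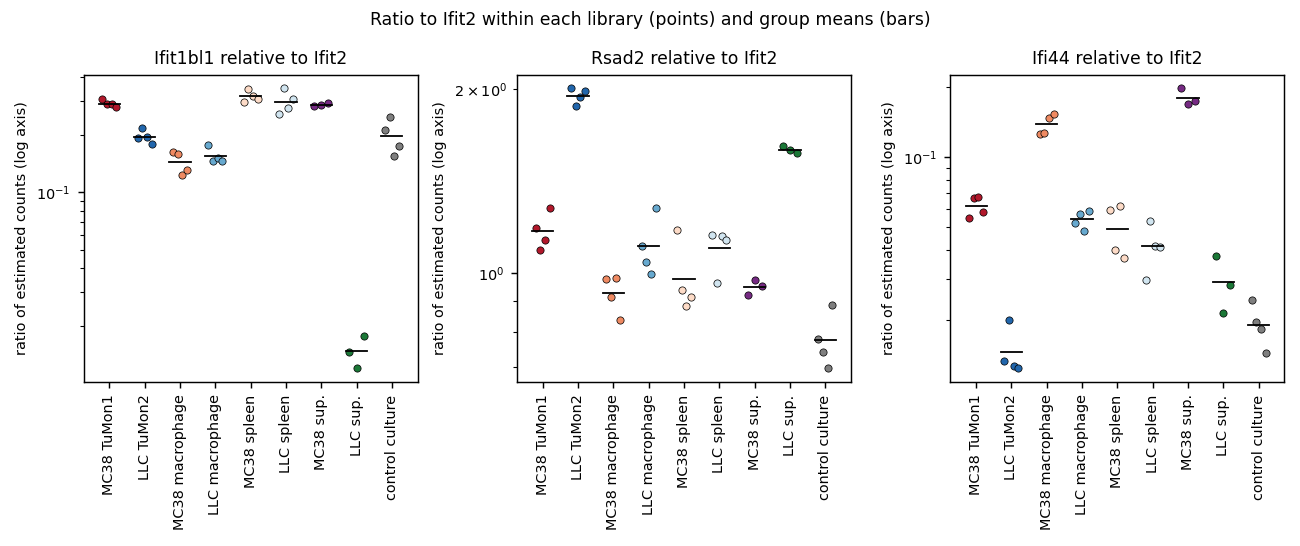
Ratio of the estimated counts of Ifit1bl1, Rsad2 and Ifi44 to those of Ifit2 in each library (points, log axis) with group means as bars. Rsad2 is high in TuMon2 and with LLC supernatant, and Ifit1bl1 drops to 0.0148 with LLC supernatant. Ifi44 is low in TuMon2, where it overlaps the control cultures.

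Across libraries the genes moved together, as a description over points that share groups and depth. Pearson's r of log2 CPM between a gene and the mean of the 9 was between 0.910 (Ifi44) and 0.997 (Ifit3) over the 24 in vivo libraries. Over the 10 cultured libraries it was between 0.886 (Ifit1bl1) and 0.998 (Ifit3). That mean includes the gene itself, which raises r, whereas the genes outside the 9 named below are not part of it. The pair least alike was Rsad2 with Ifi44 in vivo (r = 0.799) and Rsad2 with Ifit1bl1 in culture (r = 0.634). Among the 7980 genes ranked by the smaller of their 2 values of r, the closest genes outside the 9 included, in order, Oasl1, Phf11d, Igtp, Phf11a, Irf7, Frmd4a, Phf11b, Gbp2 and Oas1g. Oasl1, a relative of the oligoadenylate synthetases, had r = 0.986 in vivo and 0.997 in culture, and levels of 696 CPM in TuMon1, 235 in TuMon2, 287 with MC38 supernatant and 11.3 with LLC supernatant. Igtp and Gbp2 encode interferon-induced GTPases, and Irf7 is a factor that amplifies interferon production.

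Partner genes of the Isg15 and Ifit systems were counted in the same way. Of 8 listed, 7 were in the table and 6 were tested (Uba7, Ube2l6, Herc6, Trim25, Ifit1bl2 and Cmpk2). All 6 were higher in TuMon1 than in TuMon2 (26.8% of all genes), with a median log2 difference of 1.32, and all 6 were higher with MC38 than with LLC supernatant (21.6% of all genes), with a median of 1.52. Uba7, the activating enzyme for Isg15, differed by 1.42 ± 0.11 SE between tumor monocytes, Ube2l6, its conjugating enzyme, by 1.36 ± 0.09, and Herc6, a ligase for Isg15 in mice, by 1.29 ± 0.10. Cmpk2, the kinase gene beside Rsad2, differed by 0.75 ± 0.11 between tumor monocytes and by 2.74 ± 0.10 between supernatants. Rsad2 had 0.83 and 2.24 there. With LLC supernatant against control the 2 genes went opposite ways, Cmpk2 falling (−2.13 ± 0.10, adjusted p = 2.05e-08) and Rsad2 rising by 2.29.

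Of 11 genes of interferon signalling, 7 were higher in TuMon1 (26.8% of all genes) and 1 was lower (22.1% of all genes), with a median of 0.47. Irf7 (1.81 ± 0.12 SE), Irf1 (1.20 ± 0.17) and Stat2 (0.90 ± 0.11) were higher, and the kinase gene Jak1 was lower (−0.46 ± 0.07). Between supernatants 7 of the 11 were higher with MC38 (21.6% of all genes) and 0 lower (18.5%), with a median of 0.90 and Irf7 at 3.99 ± 0.12. With LLC supernatant against control Irf7 fell, from 111 ± 14.1 to 83.6 ± 3.20 CPM (−0.41 ± 0.10, adjusted p = 0.00523), and of the 11 genes 3 were higher (32.3% of all genes) and 7 lower (36.1% of all genes) there.

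Of 14 genes of nucleic acid sensing, 11 were higher in TuMon1 and 1 was lower (median 0.78), against the same shares of all genes. They included the RNA sensor genes Ifih1 (1.27 ± 0.09 SE) and Ddx58 (0.90 ± 0.08) and the Toll-like receptor genes Tlr3 (2.20 ± 0.20) and Tlr9 (1.75 ± 0.14), whereas the kinase gene Ikbke was lower (−0.69 ± 0.13). Between supernatants 11 were higher with MC38 (21.6% of all genes) and 2 lower (18.5% of all genes), with a median of 1.21. The lower ones were Ikbke (−0.53 ± 0.09) and Mavs (−0.23 ± 0.08), the adaptor of the RNA sensors. Of 25 other antiviral effectors, 22 were higher in TuMon1 (26.8% of all genes) and 2 lower (22.1% of all genes), with a median of 0.94. Parp9, Xaf1, Bst2 and Oas1g differed by 1.32 to 1.72, and the lower ones included Ifitm6 (−1.25 ± 0.15). With MC38 against LLC supernatant 21 were higher (21.6% of all genes) and 3 lower (18.5% of all genes), with a median of 1.47. Oasl1 differed most there at 4.67 ± 0.15, and the lower ones included Ifitm6 (−0.61 ± 0.11) and Ifitm2 (−0.38 ± 0.08). In both comparisons the median of the 9 genes was above that of each of these 4 lists.

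RNA of the interferons themselves was scarce. Ifnb1, the gene of interferon beta, had 0 counts in all 4 control and all 3 LLC supernatant cultures and 13, 13 and 11 counts in the MC38 supernatant cultures (0.588, 0.588 and 0.455 CPM). Against the level of 3 counts over a group it was at least 15.5-fold higher than in controls and at least 13.01-fold higher than with LLC supernatant. In vivo, TuMon2 libraries held 2.29, 1.09, 0.303 and 0.915 CPM and TuMon1 libraries 0.148, 0.728, 0.603 and 0.454 CPM, which overlap, and the log2 difference of TuMon1 minus TuMon2 was −1.22 ± 0.56 SE (adjusted p = 0.0765). Macrophages held 0.575 ± 0.211 CPM in MC38 and 0.345 ± 0.073 CPM in LLC tumors (SD, n = 4), and spleen libraries held 2 and 5 counts in all. Over all 34 libraries Ifna4 had 20 counts, Ifna1 13.6, Ifna5 10.7 and Ifna2 4.65 estimated counts, Ifng 73 counts, and Ifnl2 and Ifnl3 0. TuMon2 libraries held 15 of these counts for Ifna4, 11.1 for Ifna1, 7.69 for Ifna5, 2.65 for Ifna2 and 8 for Ifng. TuMon1 libraries held 4 for Ifna4, 0 for Ifna1, 1.02 for Ifna5, 0 for Ifna2 and 21 for Ifng. In TuMon2, replicate 2 alone held 13 counts of Ifna4 and 7.69 of Ifna5. At this depth a count of 0 limits the RNA in these sorted cells and says nothing of interferon protein brought by the supernatant or by other cells of the tumor.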

How the data were processed

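Messenger RNA of sorted or cultured cells was sequenced with a strand-specific kit after 14 cycles of PCR, per the labels' protocols. The authors deposited 1 table of estimated counts for 34 libraries, with 14.6% of values not whole. The submitters' processing notes name CASAVA 1.8.2 and the builds GRCm38 and mm10. The aligner, the counting tool and its strand setting were not given in the sources used here. Samples were grouped by their titles, since the tumor field of MC38 samples counts upward. Totals of 13047772 to 26966644 set the precision, and SEs cover counting error and the spread between libraries.

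Counts were rounded to whole numbers, and library totals moved by at most 0.000368%. Of 24475 genes, 24375 matched a symbol. The 24 in vivo libraries (13200 genes past filterByExpr) and the 10 cultured ones (12603 genes) were fitted apart with edgeR 4.0.16 in R 4.3.3 (TMM scaling, robust quasi-likelihood F-tests, Benjamini-Hochberg adjustment at 0.05), in 12 comparisons, of which 2 are differences of differences. CPM use TMM-scaled totals, log2 CPM a prior count of 2, and the SE is the log2 difference divided by the square root of F. DESeq2 1.42.0 was an alternative. The steps were tested on simulated data. Sequences were read with Biopython 1.88 from RefSeq windows.

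All 9 genes are named. Genes of similar pattern are the 10 with the highest smaller r among genes with a mean of at least 10 CPM in both fits, predicted models passed over. From each other list up to 4 genes per main comparison are named by adjusted p, with any that went against the majority. Some genes that these rules name are not reported here. The genes and lists were chosen with earlier results of these data known.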

Additional observations from a re-analysis of the deposited data

Results flagged for a closer look

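In LLC spleen replicate 3, 6 genes stood farther above the other 3 libraries than Dixon's 95% limit allows. They were Isg15 (122 CPM), Ifit3 (152 CPM), Ifit2 (133 CPM), Usp18 (63.4 CPM), Ifit1 (54.7 CPM) and Ifit1bl1 (36.7 CPM). In 3 other groups a single value stood apart in the same way: Ifit3 was low in TuMon2 replicate 2 (466 CPM) and in control culture replicate 2 (18.3 CPM, the control that carries fibroblast transcripts), and Ifi44 was high in TuMon2 replicate 2 (9.72 CPM). In all, 63 groups of 4 libraries were tested and 9 were past the limit, where chance gives about 1 in 20. The 6 flags of the spleen library are not independent, because the genes move together.

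The step from spleen to tumor differed between MC38 and LLC mice for all 9 genes, by log2 differences of 2.39 for Isg15, 1.75 for Usp18, 1.62 for Ifit1, 1.71 for Ifit2, 1.49 for Ifit3, 1.79 for Ifit3b, 2.18 for Ifit1bl1, 1.14 for Rsad2 and 3.60 for Ifi44. The step from monocyte to macrophage differed for 5: Ifit1 by 0.90, Ifit3 by 1.33, Usp18 by 0.85, Rsad2 by 1.40 and Ifit3b by 1.60. These are 14 of 18 such tests, each by edgeR's quasi-likelihood test of the difference itself. Of all 13200 genes tested, 23.8% were called in that direction for the first step and 6.25% for the second. In both, MC38 has the larger tumor value or the smaller fall, and tumor line and Sca1 gate cannot be told apart.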

How the results depend on the processing

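Across scaling by RLE or upper quartile, no filter, a filter of 5 CPM in 3 libraries, DESeq2, a replicate block, fits of only the groups compared, leaving out the libraries with foreign transcripts, Ifit3 and Ifit3b summed, and each library left out in turn, 24 of 3186 calls of single genes changed. The sign turned in 28 values, 0 of them of a called difference: 27 between the spleens and 1 where Ifit3b against control with LLC supernatant became 0.39 when summed with Ifit3. The count of called genes moved past 1.5 times only for the spleens, where leaving out 1 library gave 0 to 3. Between the spleens, leaving out 1 library gave ranges of −0.18 to 0.40 for Ifit1bl1, −0.31 to 0.34 for Ifit2, −0.34 to 0.18 for Ifit1, −0.061 to 0.51 for Ifit3, −0.14 to 0.49 for Ifit3b, −0.71 to 0.037 for Isg15, −0.58 to 0.21 for Rsad2 and −0.21 to 0.58 for Ifi44. Ifit1bl1 there was 0.023 with RLE, 0.050 with upper-quartile scaling, 0.025 without a filter, 0.031 with DESeq2, 0.090 with only those groups and 0.045 without the libraries with foreign transcripts, where Ifi44 was −0.26. Over all genes the spleen calls went from 3755 to 6640 without MC38 spleen replicate 4 and to 944 with only those groups. Leaving out the libraries with foreign transcripts lowered the calls over all genes between the spleens and for the tumor-spleen difference. That fit keeps only 1 MC38 spleen library, so its counts are not given. The cause was not tested. Upper-quartile scaling shifted all genes by up to 0.15 in LLC macrophages against TuMon2 and turned no called direction.

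Replicate numbers were not shown to pair samples. Of same-numbered pairs, 6 of 60 in vivo and 1 of 9 in culture had r above 0.1. Of 24 in vivo libraries, 7 correlated best with their own number. The in vivo pairs include ones across the tumors, which cannot share a mouse. The replicate block likewise ties the libraries of a number across both tumors. Neither check can settle whether cells of the same mouse were paired. With the replicate block, counts of called genes were 0.838 to 1.03 times those without it, and the call of Usp18 with LLC supernatant against control (0.27, adjusted p = 0.0495) was the only one of the 9 genes' calls to change. Depth limits Ifi44 in control cultures and Ifit1bl1 with LLC supernatant, at 5 to 21.4 counts a library.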
